A study of Mus musculus with 6 samples.

Results

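Adipokines are proteins that fat cells release into the blood and the surrounding tissue. Adipokine genes were examined in the dorsal skin of tight skin (TSK) mice, which carry a duplication within Fbn1, which encodes fibrillin 1, a protein of the microfibrils. The set held 6 genes, Adipoq, Lep, Retn, Cfd, Rarres2 and Angptl4, taken by gene name from 55291 genes in the tables. Bulk RNA was sequenced from 3 TSK and 3 wild-type (WT) mice, with 1 library per mouse, to compare TSK with WT skin. Libraries are called WT 1 to 3 and TSK 1 to 3, and values of single libraries are given in that order. Because TSK 2 was rich in fat transcripts, the edgeR comparison of each adipokine gene is given with and without it.

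All mice were C57BL/6 by their labels, which give an age of 6 to 8 weeks and no treatment. The WT mice were littermates, and the mutation was kept by backcrossing. It is present in all cells of the animal, so the comparison is not limited to fat cells or to skin. By the labels the mice were female, whereas the study's methods describe males. Y-linked transcripts were present in all 6 libraries (Ddx3y, 56.7 to 72.8 CPM, counts scaled to 1000000 per library), and Xist, the RNA that coats the silenced X of females, was low at 2.57 to 4.58 CPM.

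Dorsal skin holds a layer of fat cells beneath the dermis, and fat cells also gather around the hair follicles. Adiponectin (Adipoq) and leptin (Lep) are hormones made almost wholly by fat cells. Leptin rises with fat mass and signals energy stores to the brain, and adiponectin raises insulin sensitivity. Resistin (Retn) is made by fat cells in mice and opposes insulin. Adipsin (Cfd, complement factor D) is the protease that activates the alternative complement pathway. Chemerin (Rarres2) attracts immune cells through the receptor Cmklr1. Angiopoietin-like 4 (Angptl4) inhibits lipoprotein lipase and is induced by fasting, fatty acids and low oxygen in many tissues.

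Promoter windows from RefSeq (GRCm38.p6) were found for 4 of the 6 members, which are also the 4 whose levels moved together over the libraries. They are shown so that the start regions of genes with a like pattern can be read side by side. Each window is the 250 bases before the start, 5′ to 3′, and capitals mark every match to the motifs searched.
Adipoq, chr16:23146286-23146535, plus strand: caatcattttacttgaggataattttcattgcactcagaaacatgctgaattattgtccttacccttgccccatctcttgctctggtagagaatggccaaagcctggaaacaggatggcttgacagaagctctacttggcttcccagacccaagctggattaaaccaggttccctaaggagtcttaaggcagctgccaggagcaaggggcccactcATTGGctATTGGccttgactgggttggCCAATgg
Lep, chr6:29059971-29060220, plus strand: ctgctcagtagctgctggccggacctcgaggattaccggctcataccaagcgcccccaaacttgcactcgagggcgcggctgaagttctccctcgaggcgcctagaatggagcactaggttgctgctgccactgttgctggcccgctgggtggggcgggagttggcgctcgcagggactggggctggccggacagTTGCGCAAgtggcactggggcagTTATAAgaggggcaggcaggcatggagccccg
Retn, chr8:3655520-3655769, plus strand: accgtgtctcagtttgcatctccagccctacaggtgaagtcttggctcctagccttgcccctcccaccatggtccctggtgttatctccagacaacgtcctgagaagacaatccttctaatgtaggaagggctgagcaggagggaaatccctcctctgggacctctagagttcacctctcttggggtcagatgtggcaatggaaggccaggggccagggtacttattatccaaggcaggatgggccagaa
Cfd, chr10:79890603-79890852, plus strand: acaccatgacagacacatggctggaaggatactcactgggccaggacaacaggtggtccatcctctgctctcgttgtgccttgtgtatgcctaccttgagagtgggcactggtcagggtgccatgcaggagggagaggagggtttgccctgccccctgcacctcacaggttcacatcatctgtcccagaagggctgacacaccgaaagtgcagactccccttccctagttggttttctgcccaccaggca

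Both strands were searched for the CCAAT box (CCAAT), the TATA box (TATAA), a C/EBP palindrome (TTGCGCAA), its looser form (TTGCNNAA), the PPAR element DR1 (the half-site AGGTCA repeated with 1 base between) and the E-box (CACGTG). The CCAAT box was found at -7 to -3 of Adipoq and, on the other strand, at -34 to -30 and -27 to -23. Such a match is common, since 33.8% of 32851 RefSeq windows of this length held CCAAT. Lep held TATAA at -31 to -27, with an overlapping match on the other strand at -32 to -28, and 22.8% of windows held it. Lep also held TTGCGCAA, a sequence bound by the fat cell factor C/EBP alpha and its relatives, at -55 to -48. This palindrome was in 0.164% of windows, and the looser TTGCNNAA, which it also matches, in 9.56%. None of the letters searched were in the Retn and Cfd windows. DR1, to which PPAR gamma binds as a dimer with RXR, was in 0 of the 4 windows and in 0.0335% of all. The E-box was in 0 of the 4 and in 6.02% of all. These matches describe the letters of the windows and are not evidence of binding.

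Library totals were 17561453 to 19219814 estimated counts, and the groups overlapped. No libraries of a group were alike within sampling noise (lowest chi-square per degree of freedom, 8.02). Fbn1 was at 272 ± 14.2 CPM in WT and 1943 ± 377 CPM in TSK (SD, n = 3), a log2 difference of 2.54 (SE 0.22, adjusted p = 0.00327 by edgeR). TMM scaling, which limits the weight of a few abundant genes, left the median of the 19971 tested genes at -0.026 on the log2 scale. Scaling by library size alone moved it to 0.25. The split of genes past 0.05 was then 1685 higher and 93 lower in TSK, against 542 and 136 with TMM. Fold changes below are TSK minus WT, with TMM.

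Of the 6 adipokine genes, 3 rose in TSK skin in the main test. In the deposited CPM, every member was higher in each of the 3 TSK libraries than in any WT library, as were 29.1% of tested genes. After TMM scaling this was so for 5 of 6 members, Retn being the exception, and for 14.1% of tested genes. With edgeR's quasi-likelihood test, 3 of 6 members, Lep, Cfd and Rarres2, passed an adjusted p of 0.05, where 2.71% of tested genes passed as higher in TSK and 0.681% as lower. Without TSK 2, 4 of 6 passed (Adipoq, Lep, Cfd and Rarres2), against 1.57% of genes. All members passed the low-count filter, and the lowest count of any member in any library was 24, for Lep in WT 1. In bulk tissue, more or fewer cells of a type and more or less RNA per cell cannot be told apart.

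**Figure D1:**
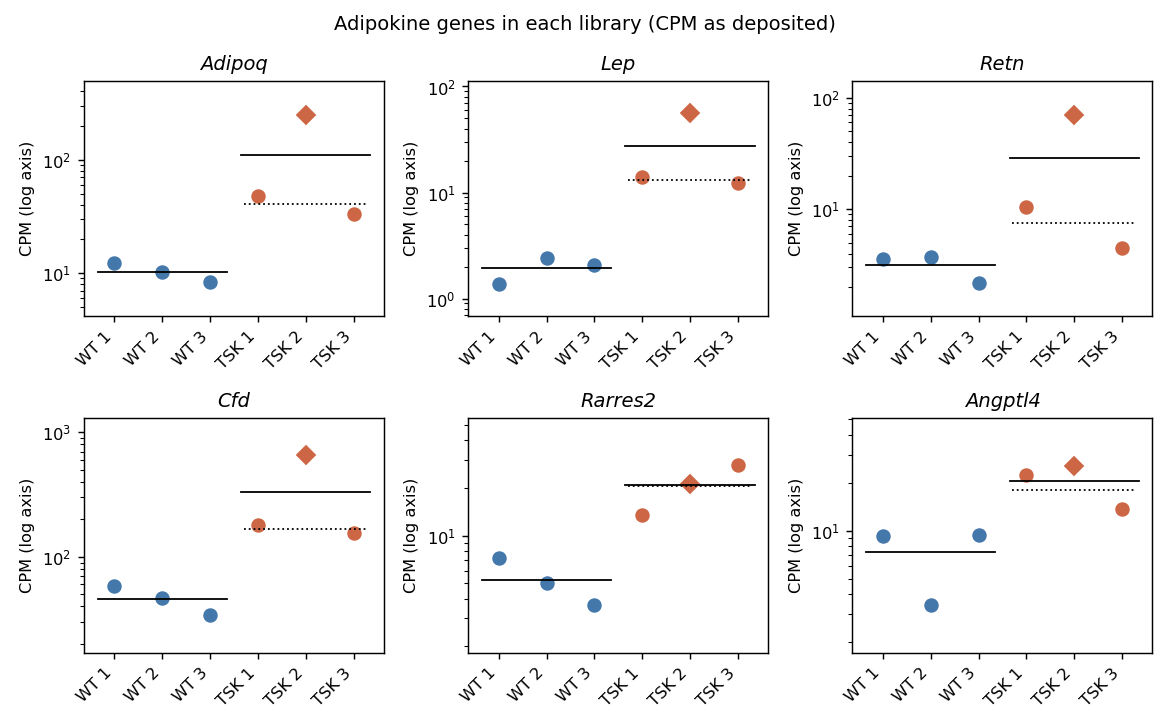
Deposited CPM (log axis) of each adipokine gene in the 3 WT (blue) and 3 TSK (orange) libraries, with TSK 2 as a diamond, the mean of each group as a solid line and the mean of TSK 1 and TSK 3 as a dotted line. TSK 2 stands far above the other TSK libraries for Adipoq, Lep, Retn and Cfd, with 247 CPM against 47.8 and 33.3 for Adipoq, and lies between them for Rarres2.

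Adipoq (chr16:23146536-23158028, mm10, plus strand) was at 12.3, 10.2 and 8.36 CPM in the WT libraries and at 47.8, 247 and 33.3 CPM in the TSK libraries. The groups did not overlap, and TSK 2 held 75.3% of the TSK sum. The mean was 10.3 ± 1.97 CPM in WT and 109 ± 120 CPM in TSK, a ratio of 10.7, or of 3.95 without TSK 2. On the log2 scale TSK was 3.13 above WT (SE 0.70, adjusted p = 0.0519 by edgeR), which missed the threshold. Without TSK 2 it was smaller, 1.72, but its SE was 0.21 and it passed (adjusted p = 0.0139).

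Lep (chr6:29060220-29073877, plus strand) was the least abundant member in WT skin. It was at 1.37, 2.40 and 2.09 CPM in the WT libraries and at 13.9, 56.2 and 12.2 CPM in the TSK libraries. The lowest TSK library was 5.09 times the highest WT library, the widest gap of the 6 members. Means were 1.95 ± 0.528 and 27.4 ± 24.9 CPM, a ratio of 14.1, or of 6.69 without TSK 2. Lep rose by 3.50 on the log2 scale (SE 0.64, edgeR adjusted p = 0.0275). It also rose without TSK 2, by 2.45 (SE 0.30, adjusted p = 0.0139). The call was lost without WT 2 (3.76, adjusted p = 0.0629) or WT 3 (3.57, 0.114).

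Retn (chr8:3655770-3660110, plus strand) depended most on TSK 2. It was at 3.59, 3.73 and 2.19 CPM in the WT libraries and at 10.5, 70.6 and 4.48 CPM in the TSK libraries. TSK 3 lay just above the WT libraries and, after TMM scaling, below WT 2 (3.95 against 4.54 CPM). Its log2 difference was 2.88 (SE 0.91, adjusted p = 0.126 by edgeR), and 0.98 without TSK 2 (SE 0.40, adjusted p = 0.277). Its transcripts share stretches of at most 103 bases, at 90% identity or more, with those of 154 other genes, and its counts were not whole in any library, so its level is uncertain. No such stretch of 40 bases or more was found for Adipoq, Lep, Cfd or Angptl4. The search (megablast) starts from long exact matches, so it can miss short stretches with mismatches. The counts of Angptl4 and Cfd were not whole in any library either, nor those of Adipoq in every library.

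Cfd (chr10:79890853-79892655, plus strand) was the most abundant member per length in both groups. It was at 57.8, 46.7 and 33.9 CPM in the WT libraries and at 179.7, 654 and 155 CPM in the TSK libraries. All TSK libraries were above all WT libraries, and TSK 2 held 66.1% of the TSK sum. Means were 46.1 ± 11.98 and 330 ± 281 CPM, a ratio of 7.15, or of 3.63 without TSK 2. Cfd rose by 2.56 on the log2 scale (SE 0.53, edgeR adjusted p = 0.0379), and by 1.60 without TSK 2 (SE 0.21, adjusted p = 0.0165). The call was lost without any 1 of the WT libraries (adjusted p = 0.0538 without WT 1, 0.1004 without WT 2 and 0.162 without WT 3).

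Rarres2 (chr6:48569696-48572789, minus strand) did not follow TSK 2. It was at 7.18, 5.004 and 3.63 CPM in the WT libraries and at 13.5, 21.2 and 27.8 CPM in the TSK libraries. The highest library was TSK 3, and the groups did not overlap. Means were 5.27 ± 1.79 and 20.8 ± 7.16 CPM, a ratio of 3.95, or of 3.91 without TSK 2. Rarres2 rose by 1.71 on the log2 scale (SE 0.28, edgeR adjusted p = 0.0193), and by 1.70 without TSK 2 (SE 0.31, adjusted p = 0.0421). Its call was lost without WT 2 (adjusted p = 0.0521) or WT 3 (0.0833). Rarres2 overlaps Lrrc61, on the opposite strand, by 1027 bases, and whether the counting used strand is not given in the sources used here. Lrrc61 was at 10.4 to 16.9 CPM in the 6 libraries, with a log2 fold change of -0.19 (adjusted p = 0.665).

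Angptl4 (chr17:33773750-33781830, minus strand) had the smallest log2 difference of the 6 with all libraries, but not without TSK 2. It was at 9.24, 3.42 and 9.47 CPM in the WT libraries and at 22.4, 25.6 and 13.6 CPM in the TSK libraries. WT 2 lay below the other WT libraries, and the groups did not overlap. Means were 7.38 ± 3.43 and 20.5 ± 6.22 CPM, a ratio of 2.78. The log2 fold change of 1.23 missed the threshold (SE 0.35, edgeR adjusted p = 0.0962), as did that of 1.06 without TSK 2 (SE 0.38, adjusted p = 0.218).

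DESeq2, the tool the study used, called 5 of 6 members at an adjusted p below 0.05, against 5.2% of the genes it tested. Only Retn missed that threshold (log2 fold change 2.90, adjusted p = 0.0847). At the stricter thresholds of the study, an adjusted p below 0.01 and a fold above 2.5, edgeR called 0 of 6 members and 0.255% of genes, and DESeq2 4 of 6 and 1.42%. With edgeR, 6 of 6 members passed 0.05 when libraries were scaled by size alone, against 8.44% of genes, and when no low-count filter was used, against 2.99%. All 6 members had an unadjusted edgeR p under 0.05, as did 12.1% of genes in the higher direction. Without WT 2, edgeR called 0 of 6 members at an adjusted p of 0.05, against 1.09% of genes, and 6 of 6 at an unadjusted p, against 9.84%. Without WT 3 it likewise called 0 of 6, against 0.218%, and 6 of 6 at an unadjusted p, against 9.3%.

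**Figure D2:**
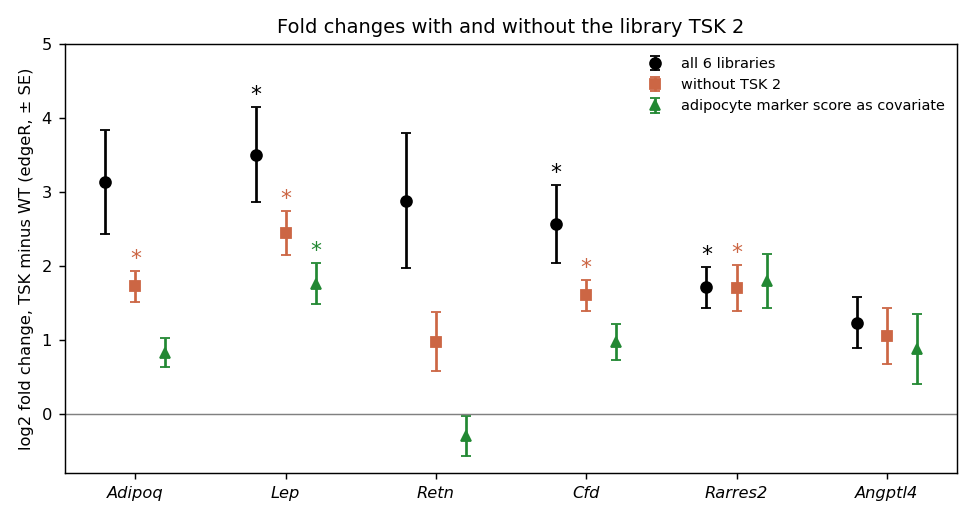
The log2 fold change (TSK minus WT, edgeR, ± SE) of each adipokine gene with all 6 libraries (black), without TSK 2 (orange) and with the adipocyte marker score of each library as a covariate (green). An asterisk marks an adjusted p below 0.05. Leaving out TSK 2 lowered Adipoq from 3.13 to 1.72 and left Rarres2 at 1.70.

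Levels between genes were compared as CPM per kb of exon. In WT skin Cfd was highest at 50.02 ± 12.99, followed by Adipoq at 7.44 ± 1.43. Angptl4 (2.08 ± 0.968), Retn (2.01 ± 0.5400) and Rarres2 (1.98 ± 0.673) lay within their spread of each other, and Lep was lowest at 0.582 ± 0.158. The order was partly different in TSK skin. Cfd (357 ± 305) and Adipoq (79.3 ± 86.6) were again the highest. Cfd was above Adipoq within each TSK library, at 195 against 34.6, 709 against 179 and 168 against 24.1. Their ranges over the libraries met only because Adipoq in TSK 2 was above Cfd in TSK 3. Retn (18.1 ± 23.2), Lep (8.18 ± 7.44), Rarres2 (7.83 ± 2.69) and Angptl4 (5.80 ± 1.76) did not differ beyond their spread.

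The members fell into 2 patterns within the TSK group. Retn in TSK 2 was at 9.43 times the mean of TSK 1 and TSK 3 in CPM, Adipoq at 6.10, Lep at 4.31 and Cfd at 3.90 times. Rarres2 was at 1.03 and Angptl4 at 1.42 times. On TMM-scaled CPM, the former 4 exceeded 3 times, as did 0.746% of tested genes. TSK 2 was the highest of the 6 libraries for 5 members, all but Rarres2, and for 15.1% of tested genes.

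Over the 6 libraries, log2 levels of Adipoq, Lep, Retn and Cfd correlated at r = 0.871 (Lep and Retn) to 0.994 (Adipoq and Cfd). Pairs that included Rarres2 or Angptl4 were at 0.568 to 0.822. These values describe 6 points that share the 2 groups and the extreme library TSK 2. Among 12011 other genes with a mean CPM of at least 5, the genes most like Adipoq were Cidec (r = 0.998), Lipe and Trarg1 (both 0.997), which encode proteins of the lipid droplet, fat breakdown and glucose transport in fat cells. For Cfd they were Plin1 (0.998), which coats the lipid droplet, Trarg1 and Ipo9 (both 0.995). Lep was closest to Adcy5 (0.999), Marchf8 (0.998) and Bmp6 (0.997), and Retn to Gpat3 (0.998), Mettl7a1 (0.992) and Aqp7, the fat cell glycerol channel (0.991). The closest were Phc2 (0.996), Smim14 (0.995) and Tubb4a (0.994) for Rarres2, and Sox12 (0.989), Spin1 (0.989) and Ypel3 (0.988) for Angptl4. None of the 3 closest genes was on the adipocyte marker list for Lep, Rarres2 and Angptl4. With the mean log2 level of the listed adipocyte markers, r was 0.978 for Adipoq, 0.923 for Lep, 0.989 for Retn and 0.954 for Cfd. It was 0.627 for Rarres2 and 0.690 for Angptl4.

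**Figure D3:**
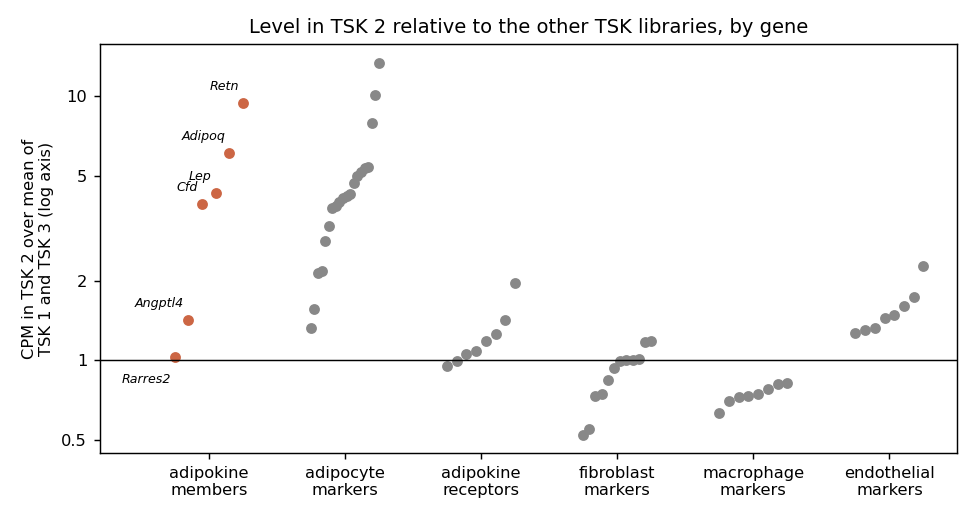
CPM in TSK 2 divided by the mean of TSK 1 and TSK 3 (log axis), 1 point per gene, for the adipokine genes (orange) and for fixed lists of other genes (grey). Retn (9.43), Adipoq (6.10), Lep (4.31) and Cfd (3.90) lie well above 1, as do most adipocyte markers (range 1.33 to 13.4), whereas Angptl4 (1.42) lies near the lowest marker and Rarres2 (1.03) below it.

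Of 20 adipocyte markers, which are genes of fat storage and breakdown, none was at 0 in any library. Their median log2 fold change was 1.97, against -0.026 for all genes. With edgeR 2 passed the test, Plin1 (3.16, adjusted p = 0.0422) and Trarg1 (3.03, 0.0491), 13 had an unadjusted p under 0.05 and 17 were above 0. DESeq2 called 8 of the 19 it tested, all higher. Single markers differed widely, from -0.46 for Car3 to 3.40 for Pck1. Without TSK 2 the median was 0.79 and 5 passed (Plin1, Cidec, Lipe, Dgat2 and Trarg1). Their summed CPM was 4312 to 5028 in WT, 5685 in TSK 1, 20317 in TSK 2 and 4782 in TSK 3. Car3, which skeletal muscle also makes, held 2217 to 2972 CPM of each sum. In TSK 2, Fasn and Scd1, enzymes of fatty acid synthesis that sebaceous glands also use, stood out among the markers at 3710 and 6275 CPM, against 102 to 318 and 142 to 774 CPM in the other libraries (named after their values were seen).

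Each member was next set against the adipocyte markers of its own library, as log2(CPM + 0.1) minus the mean of the 20 markers on that scale. With 3 libraries against 3, a two-sided exact permutation test cannot give a p below 0.1. Relative to the markers, Lep was 1.78 higher in TSK than in WT on the log2 scale (3.42 times), Adipoq 1.20 higher (2.30 times) and Cfd 0.91 higher (1.87 times). For these 3 genes every TSK library lay above every WT library, and each reached that smallest p (exact permutation test, two-sided, p = 0.1, 0.2 adjusted over 6 members). The differences were similar without TSK 2, at 1.75, 1.01 and 0.93. Their size, and for Adipoq and Cfd their sign, depended on the markers used. Of the 20 markers, 17 had an edgeR log2 fold change above 0. Car3 (-0.46), Slc2a4 (-0.31) and Gpd1 (-0.16) lay below 0, which lowers the mean in TSK. Plin1 (3.16) and Trarg1 (3.03) changed about as much as Adipoq (3.13), more than Cfd (2.56) and less than Lep (3.50). With the median of the markers in place of their mean, the differences were 2.21 for Lep, 1.63 for Adipoq and 1.34 for Cfd. Against Plin1 and Trarg1 alone they were 0.52, -0.057 and -0.35, but these markers were taken after seeing the data for having passed the same comparison of TSK with WT, which lowers such differences, so no test is given.

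The other members overlapped between the groups on this scale. Retn differed by 0.60 (exact p = 0.4, adjusted 0.6), and by 0.17 without TSK 2. Rarres2 differed by 0.31 (exact p = 0.8), with TSK 2 the lowest of all libraries and TSK 3 the highest. The difference was 0.95 without TSK 2 and -0.37 without TSK 3. Angptl4 differed by -0.087 (exact p = 0.7), and by 0.41 without TSK 2.

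**Figure D4:**
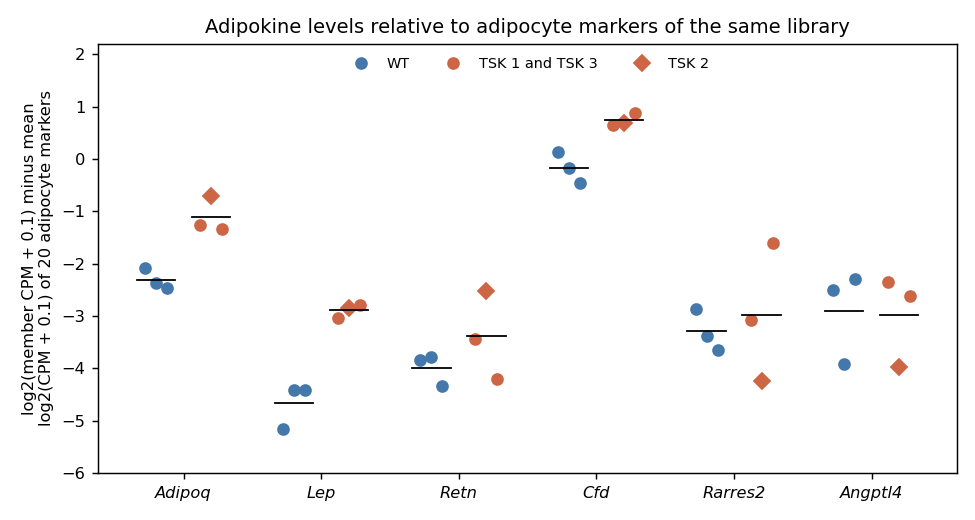
Log2(CPM + 0.1) of each adipokine gene minus the mean of 20 adipocyte markers in the same library, for WT (blue), TSK 1 and TSK 3 (orange circles) and TSK 2 (diamond), with the group mean as a line. The TSK libraries lie above the WT libraries for Adipoq, Lep and Cfd, by 1.20, 1.78 and 0.91 on average, and overlap with them for Retn, Rarres2 and Angptl4.

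The adipocyte marker score of each library, the mean log2 TMM-scaled CPM of the markers, was also added as a covariate to a fit across all genes. It was 5.69, 6.01 and 5.72 for the WT libraries and 6.76, 8.51 and 6.23 for the TSK libraries, so it did not overlap between the groups and cannot be told apart from genotype. Lep had a log2 difference of 1.76 (edgeR adjusted p = 0.0384), against 3.50 in the main fit. It was the only member past 0.05, against 0.796% of genes. Rarres2 kept 1.79 but missed the threshold (adjusted p = 0.0729). Cfd was at 0.97 (0.126), Angptl4 at 0.87 (0.405), Adipoq at 0.83 (0.106) and Retn at -0.31 (0.624). This fit left 3 residual degrees of freedom, and its score rests on the same 20 markers.

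Of the 8 adipokine receptors, 1 rose and 0 fell by edgeR (3 higher and 1 lower at an unadjusted p under 0.05), 2 were higher by DESeq2, and the median log2 fold change was 0.36, or 0.17 without TSK 2. Lepr, the leptin receptor, was at 3.21, 2.11 and 2.43 CPM in the WT libraries and at 7.75, 9.54 and 12.3 CPM in the TSK libraries. It rose by 1.66 (SE 0.21, edgeR adjusted p = 0.01005), and by 1.69 without TSK 2 (adjusted p = 0.0207). Its highest library was TSK 3, as for Rarres2. The chemerin receptors Cmklr1 (0.63, adjusted p = 0.103) and Gpr1 (1.36, 0.0787) did not pass by edgeR, although Cmklr1 did by DESeq2 (0.64, adjusted p = 0.0447). Nor did Ccrl2 (-0.091, 0.913), which binds chemerin without signalling. The adiponectin receptors Adipor1 (-0.20, 0.605) and Adipor2 (0.45, 0.416) and the adiponectin-binding cadherin Cdh13 (-0.47, 0.129) did not pass. Cap1, described as a receptor for human resistin, was at 0.27 (0.417).

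Of 7 leptin signalling genes, only Lepr passed by edgeR (1 higher and 3 lower at an unadjusted p under 0.05), and the median was -0.31, or -0.17 without WT 2. Scaled by library size alone it was -0.020, where the median of all tested genes was 0.25. Socs3, which leptin induces and which damps its signal, was at 35.4 to 57.1 CPM in WT and 21.7 to 36.2 CPM in TSK (log2 fold change -1.001, adjusted p = 0.0710, edgeR), named after its value was seen. DESeq2 called it lower (adjusted p = 0.00507). Stat3 (-0.052, adjusted p = 0.868), the transcription factor downstream of the receptor, and Sh2b1 (-0.42, 0.117), an adaptor that enhances its signal, did not pass.

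Among 19 other adipokines, 17 were tested, 3 rose and 0 fell by edgeR (8 higher at an unadjusted p under 0.05, and 5 by DESeq2), and the median was 0.61, or 0.58 without TSK 2. Serpina12, the gene for vaspin, was at 4.78 ± 0.925 CPM in WT and 20.9 ± 4.45 CPM in TSK (1.86, edgeR adjusted p = 0.00847). C1qtnf7 (1.79, 0.0123) and C1qtnf1 (1.55, 0.0244), relatives of adiponectin, also rose. These 3 passed without TSK 2 as well (1.79, 1.84 and 1.62). In TSK 2 they were at 1.17, 0.907 and 0.874 times the mean of TSK 1 and TSK 3. Rbp4, the retinol carrier, had the largest fold change of the list (3.53, edgeR adjusted p = 0.0808, DESeq2 adjusted p = 0.0188), and Nrg4, which fat cells secrete, had 2.501 (0.123), both named after their values were seen. These genes were at 32.3 and 25.1 CPM in TSK 2 and at 2.92 to 4.78 and 3.02 to 4.01 CPM in the other TSK libraries. Itln1 was at 0 counts and Il6 at 4 counts in all libraries together.

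**Figure D5:**
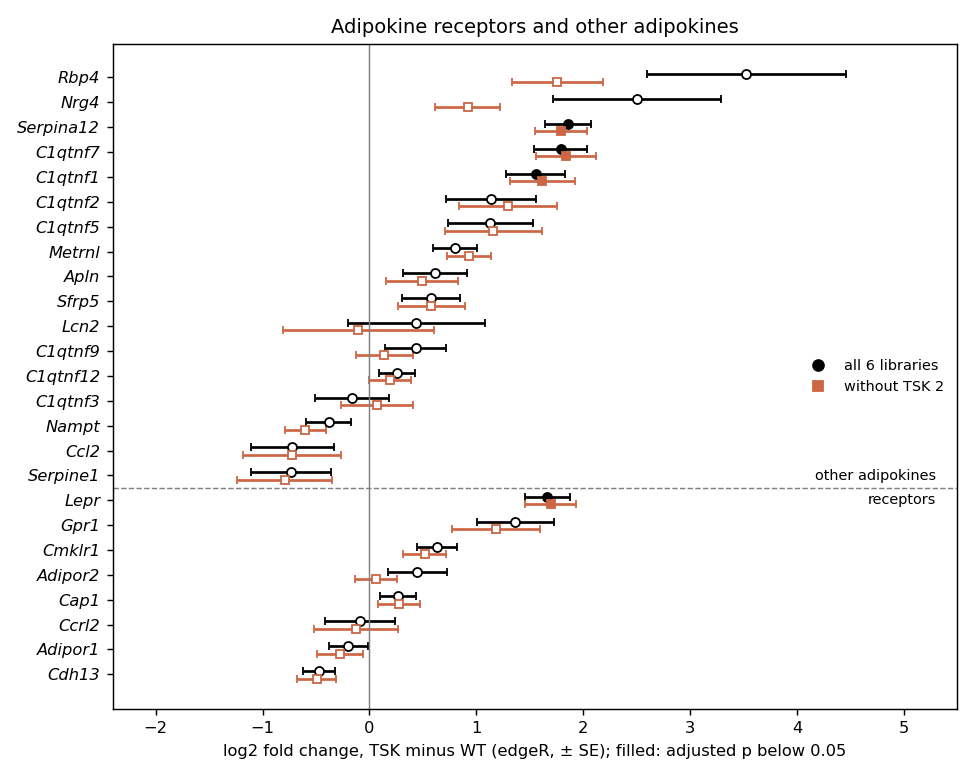
The log2 fold change (TSK minus WT, edgeR, ± SE) of other adipokine genes (top) and adipokine receptors (bottom), with all 6 libraries (black circles) and without TSK 2 (orange squares), filled where the adjusted p was below 0.05. Serpina12, C1qtnf7, C1qtnf1 and Lepr are filled in both fits, and Rbp4 moved most between them, from 3.53 to 1.76.

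Of the 3 relatives of Retn, 1 could be tested. Retnla, which macrophages and fat tissue make, rose with an edgeR log2 fold change of 3.44 (SE 0.35, adjusted p = 0.00606). It was lower in TSK 2 than in the other TSK libraries, at 0.646 times their mean, where Retn was at 9.43 times. Retnlb had 0 counts, and Retnlg had 3 counts over all libraries.

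Of all tested genes, 2.71% passed by edgeR as higher in TSK and 0.681% as lower. Genes that share a pathway with Angptl4 were read beside these shares. Of 13 angiopoietin-like and lipoprotein lipase genes, 8 were tested and 0 passed by edgeR or DESeq2 (1 at an unadjusted p under 0.05), with a median of 0.11, or of 0.18 without WT 2 and 0.032 without TSK 2. Lpl, the lipase that Angptl4 inhibits, was at 262 ± 78.9 CPM in WT and 780.4 ± 678 CPM in TSK (1.25, edgeR adjusted p = 0.261), with 1559 CPM in TSK 2. Angptl2 was at 0.25 (0.472). Of 15 PPAR and hypoxia targets that share these inducers with Angptl4, 0 rose and 1 fell by edgeR, with a median of -0.19. At an unadjusted p under 0.05, 2 were higher and 3 lower, and DESeq2 called 1 higher and 1 lower. The gene that fell was Ucp3, an uncoupling protein of skeletal muscle (-0.84, adjusted p = 0.0191). Pdk4, a kinase that limits glucose oxidation and among the most abundant of the list, did not pass (-0.64, adjusted p = 0.187). The median turned above 0 where libraries were scaled by size alone (0.12) and without WT 2 (0.024), and without single other libraries it was between -0.34 (WT 1) and -0.00077 (TSK 3).

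Genes around Cfd in the alternative complement pathway had a median log2 fold change of 0.72 over the 8 tested, but of 0.15 without TSK 3. C3, the central component that the pathway cleaves, was at 0.95 (edgeR adjusted p = 0.179), and Cd55, which breaks down its convertases, at -0.16 (0.619). Neither passed the test.

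Among 12 adipocyte transcription factors the median was 0.69, or 0.45 without TSK 2, and 3 rose and 0 fell by edgeR (7 higher at an unadjusted p under 0.05, and 5 by DESeq2). Ebf1 rose by 1.58 (edgeR adjusted p = 0.00862), Cebpa by 1.43 (0.0351) and Ebf2 by 1.39 (0.0336). Ebf1 and Ebf2 act early in fat cell formation, and Cebpa drives the mature programme, Adipoq and Lep included. Only Ebf1 passed without TSK 2. Pparg, the central factor, was at 3.14 to 5.07 CPM in WT and at 8.03, 33.2 and 7.74 CPM in TSK 1 to 3 (1.81, edgeR adjusted p = 0.112, DESeq2 adjusted p = 0.00586), named after its values were seen.

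TSK 2 also held transcripts of brown fat. Ucp1, the uncoupling protein that defines brown fat cells, was at 79.9 CPM in TSK 2 and at most 0.114 CPM in the other 5 libraries. Cidea was at 45.3 CPM against 1.22 to 5.92, and Otop1 at 10.3 CPM against at most 0.605 (these 3 were named after their values were seen). Of 8 brown fat markers, 6 were tested, with a median of 0.11. Leaving out 1 library moved it to between -0.19 (TSK 2) and 0.73 (WT 1). By edgeR and by DESeq2 0 passed (1 at an unadjusted p under 0.05). The most abundant, Cox8b (-0.26, adjusted p = 0.701) and Cox7a1 (-0.35, 0.631), are subunits that skeletal muscle also uses. The part of this tissue in the levels of the adipokine genes in TSK 2 was not tested.

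Markers of other cells in skin were also read. In TSK 2 the fibroblast markers were at 0.523 to 1.18 times the mean of TSK 1 and TSK 3, the macrophage markers at 0.635 to 0.821 and the endothelial markers at 1.27 to 2.27 times. Of 12 fibroblast markers, all above 0, 4 rose by edgeR (Pi16, Dpp4, Dpt and Thy1), or 2 without TSK 2 (Pi16 and Dpp4), with a median of 1.07. At an unadjusted p under 0.05, 10 were higher, and DESeq2 called 9. Their summed CPM was 6443 to 9762 in WT, 21149 in TSK 1, 20789 in TSK 2 and 47963 in TSK 3. TSK 3 was also the highest library for Rarres2. The 8 macrophage markers had a median of 0.91 with 0 passing by edgeR (5 higher and 1 lower, Aif1, at an unadjusted p under 0.05, and 3 higher by DESeq2). Their median was 1.05 without TSK 2 and 0.41 without TSK 3. They summed to 199 to 316 CPM in WT and to 377, 522 and 1022 CPM in the TSK libraries. The part of fibroblasts and macrophages in the Rarres2 level was not tested. Of 8 endothelial markers, 2 rose by edgeR (Tek and Vwf; 7 higher at an unadjusted p under 0.05, and 3 by DESeq2), with a median of 0.72, or 0.50 without TSK 2.

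Sebocyte markers, whose cells also store lipid, had a median of 0.39 with 0 of 8 passing by edgeR (1 at an unadjusted p under 0.05, and 1 by DESeq2). The median was 0.83 without WT 1 and 0.15 without WT 2. Their sum was 39.3 to 141 CPM in WT and 124 to 189 CPM in TSK. Of 8 keratinocyte markers 1 rose (Lor), with a median of -0.28 (-0.14 without WT 1 and -0.57 without TSK 1), and of 14 adult skeletal muscle markers 0 passed by edgeR, with a median of -0.79 (1 higher and 8 lower at an unadjusted p under 0.05, and 1 higher and 10 lower by DESeq2). None of the fibroblast, macrophage, endothelial, keratinocyte, sebocyte and muscle markers was at 0 in any library.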

How the data were processed

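RNA from dorsal skin of 3 TSK and 3 WT mice was analysed, grouped by the sample labels. Per the labels, libraries were stranded and depleted of ribosomal RNA. The submitters' processing notes name bcl2fastq 2.19.1.403, STAR, Partek 11.0 and mm10. The authors deposited a table named as raw counts and a table of CPM. Of the values above 0, 43.3% to 45.4% per library were whole to within 0.001, and the deposited counts were therefore treated as estimated counts. They were rounded, although the tests had been planned for whole counts. Reads that match several genes can thus be shared among them.

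Main tests used edgeR 4.0.16 (R 4.3.3; quasi-likelihood, TMM, filterByExpr, group only, two-sided), with Benjamini-Hochberg adjustment over 19971 genes. DESeq2 1.42.0 and limma 3.58.1 were alternatives. Ratios to markers used scipy 1.17.1, and transcripts were compared by BLAST 2.17.0. Scripts were tested on simulated counts. Coordinates are 1-based in mm10. The tests rest on 1 library per mouse, and counting error was not separated from the spread between mice.

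The members and gene lists were chosen with earlier results of these data known. Genes were named by rule: the members, Fbn1, all receptors and the resistin family, and from each other list up to 4 genes past 0.05 with the largest change or, where fewer than 2 passed, the 2 most abundant, plus the 3 genes most like each member at a mean CPM of at least 5. Of the abundant pairs, only those of lists close to the members are described. Exceptions are stated. Trarg1 and Car9 were listed under older symbols. Single-cell data were not analysed here. Some genes that the rule names are not reported here.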

Additional observations from a re-analysis of the deposited data

How the results depend on the processing

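Each member kept its direction over 18 alternatives, except Retn with the adipocyte marker score as a covariate (-0.31). Calls were less stable. Against 3 members past 0.05, library size only and no low-count filter gave 6, DESeq2 and limma-trend with either pseudocount gave 5, the covariate gave 1 and the thresholds of the study gave 0. Adipoq passed with library size only (3.41), DESeq2 size factors in edgeR (3.14), DESeq2 (3.15), limma-trend (2.74 with a pseudocount of 1 and 2.84 with 0.1) and no filter (3.14). Angptl4 passed with library size only (1.48), DESeq2 (1.25), limma-trend (1.42 and 1.55) and no filter (1.23). Retn passed with library size only (3.17) and no filter (2.88). Lep missed the threshold with limma-voom (3.21), and Cfd (0.97) and Rarres2 (1.79) with the covariate. Genes higher in TSK numbered 1685 with library size only, 1129 with DESeq2, 1771 and 1761 with limma-trend, 1040 with no filter and 159 with the covariate, against 542. With limma-trend, 100 and 99 genes were lower. Genes lower in TSK numbered 406 with DESeq2, 347 with no filter and 17 with the covariate, against 136. The cause of each such shift was not tested.

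Without 1 library, the members past 0.05 ranged from 0 to 4. By edgeR there were 0 without WT 2 or WT 3 (6 at an unadjusted p under 0.05 in both, against 9.84% and 9.3% of genes), where 226 and 45 genes were higher. Genes higher ranged from 45 to 713 and genes lower from 15 to 547, the latter without WT 1. Without TSK 2 they were 321 and 60, and without TSK 3 322 and 65. Log2 fold changes ranged from 1.72 to 3.57 for Adipoq, 2.45 to 3.86 for Lep, 0.98 to 3.39 for Retn, 1.60 to 2.91 for Cfd, 1.47 to 1.93 for Rarres2 and 0.94 to 1.51 for Angptl4. Relative to adipocyte markers, differences ranged from 1.01 to 1.32 (Adipoq), 1.52 to 1.90 (Lep), 0.17 to 1.01 (Retn), 0.76 to 1.06 (Cfd), -0.37 to 0.95 (Rarres2) and -0.59 to 0.41 (Angptl4). Against Plin1 and Trarg1 alone, chosen after seeing the data for having passed the same comparison, Adipoq (-0.057), Cfd (-0.35), Retn (-0.65) and Rarres2 (-0.94) turned below 0, and Lep was at 0.52. The median of the markers in place of their mean turned Angptl4 to 0.34. Angptl4 was also above 0 without WT 1 (0.11), WT 3 (0.22) or TSK 2 (0.41).

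Over 16 lists and the alternatives, 280 of 287 medians kept their direction and 7 turned. Those 7 were the PPAR and hypoxia targets with library size only (0.12), limma-trend (0.15 and 0.16) and without WT 2 (0.024, and -0.34 at the lowest without another library), the brown fat markers without TSK 2 (-0.19) and with the covariate (-0.77), and the angiopoietin-like and lipase genes with the covariate (-0.058). The replicate numbers gave no sign of pairing the mice (correlations of same-numbered libraries 0.0112, 0.167 and -0.0938). With 3 libraries per group, these values cannot exclude pairing. With the replicate block 4 members passed, Adipoq among them (2.56, adjusted p = 0.0293), and 665 genes were higher and 129 lower. Robust dispersion in edgeR, chosen after seeing the data, changed no call of a member.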
